A study of Homo sapiens with 17 samples.

Results

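Knockdown of SMARCA4 was compared with a non-targeting siRNA in IMR90 ER:RAS cells after oncogene-induced senescence. IMR90 are human lung fibroblasts, and the ER:RAS line carries a retroviral fusion of the RASG12V oncoprotein to an oestrogen receptor domain that 4-hydroxytamoxifen (4OHT) switches on. The libraries were taken by their labels alone. They are the 6 libraries labelled 4OHT + siSMARCA4 and the 6 labelled 4OHT Control + siNT, 12 of the 17 libraries of the series. The remaining 5 are DMSO Control + siNT, that is, the same cells with the oncogene off.

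All cells were transfected with siRNA a day before 4OHT or DMSO was added, and RNA was taken 7 days after induction. Each label carries an siRNA number, 2 or 4. The siSMARCA4 group holds 3 libraries of each number, as does the 4OHT siNT group. The labels do not say what the number means for the non-targeting siRNA. Each label also ends in a replicate tag such as 2VM or 3V, and a library is named below by group, number and tag. All 6 siNT libraries in 4OHT end in VM, whereas 3 siSMARCA4 libraries end in VM and 3 in V. The meaning of this ending is not given in the sources used here. No siNT library in 4OHT ends in V, so V against VM cannot be told apart from knockdown within the V libraries. Both endings occur in the DMSO and siSMARCA4 groups, so V or VM could be fitted as a covariate, which takes its effect as equal in all groups. No DMSO library received siSMARCA4, hence the effect of the knockdown outside senescence was not measured. The labels do not state whether replicates came from separate cultures, and p-values measure only the spread between these libraries.

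SMARCA4, also known as BRG1, is one of the ATPases that power the SWI/SNF complexes. These complexes slide and evict nucleosomes and keep enhancers and promoters open for transcription factors. Oncogene-induced senescence is a stable growth arrest in which fibroblasts remodel their chromatin and secrete cytokines, proteases and matrix proteins, and SWI/SNF acts on many of the genes concerned.

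Library totals ranged from 39.1 to 68.98 M counts (M, 1e6), with 26312 to 29253 genes detected in each. Repeat loci took 1.39% to 1.52% of the counts in siNT and 1.52% to 1.84% in siSMARCA4. The fibroblast label was checked against 12 markers, all of which exceeded 1 CPM (counts per 1e6 counts). Markers of other cell types were mixed. KRT5 and KRT14 were at 0 in all 12 libraries, and CDH1, CDH5 and PTPRC reached at most 0.131 CPM. Other members of the same marker lists were expressed: in siNT, TUBB3 was at 256 to 301 CPM, KRT18 at 51.5 to 68.5 CPM, CD68 at 21.9 to 28.9 CPM, KRT8 at 10.7 to 13.3 CPM and NEFL at 9.41 to 19.7 CPM. Of the endothelial markers, TEK was at 4.38 to 9.02 CPM and VWF at 2.55 to 4.35 CPM in siNT. In these bulk libraries, fewer cells of a type and less RNA per cell cannot be told apart. On the first principal component of the 12 libraries, which held 40.2% of the variance, siNT libraries lay between -27.2 and -19.3. The siSMARCA4 VM libraries lay between 34.6 and 36.1, and the V libraries lay nearer to siNT at 2.26, 8.57 and 24.4. The second component held 26.3% of the variance and spread the siNT libraries widely. On it, siNT 2-3VM and 2-2VM lay at -39.0 and -38.1, and siNT 4-1VM and 4-2VM at 25.2 and 29.1. The siSMARCA4 libraries lay between -8.55 and 20.7 on that component.

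First, the targeted gene was examined. SMARCA4 (ENSG00000127616; GRCh38, chromosome 19, 10960932 to 11079426, plus strand) was at 256 CPM in the lowest siNT library, 268 at the median and 289 in the highest. In siSMARCA4, the lowest, median and highest values were 69.4, 82.4 and 130 CPM. The groups did not overlap. The mean remaining level was 33.1% of siNT (log2 change -1.59 ± 0.13 SE, adjusted p = 6.1e-07 by edgeR). The 3 VM libraries, at 69.4 to 80.1 CPM, held less SMARCA4 than the 3 V libraries, at 84.8 to 130 CPM. Both siRNA numbers lowered the transcript, by -1.62 for number 2 and -1.57 for number 4 on the log2 scale, and the difference between them did not pass the test (edgeR adjusted p = 0.96). SMARCA2, which encodes the alternative ATPase of the same complexes, fell too, from 26.9 to 33.8 CPM in siNT to 18.9 to 23.4 CPM in siSMARCA4 without overlap (log2 change -0.51 ± 0.10 SE, adjusted p = 0.001 by edgeR).

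**Figure D1:**
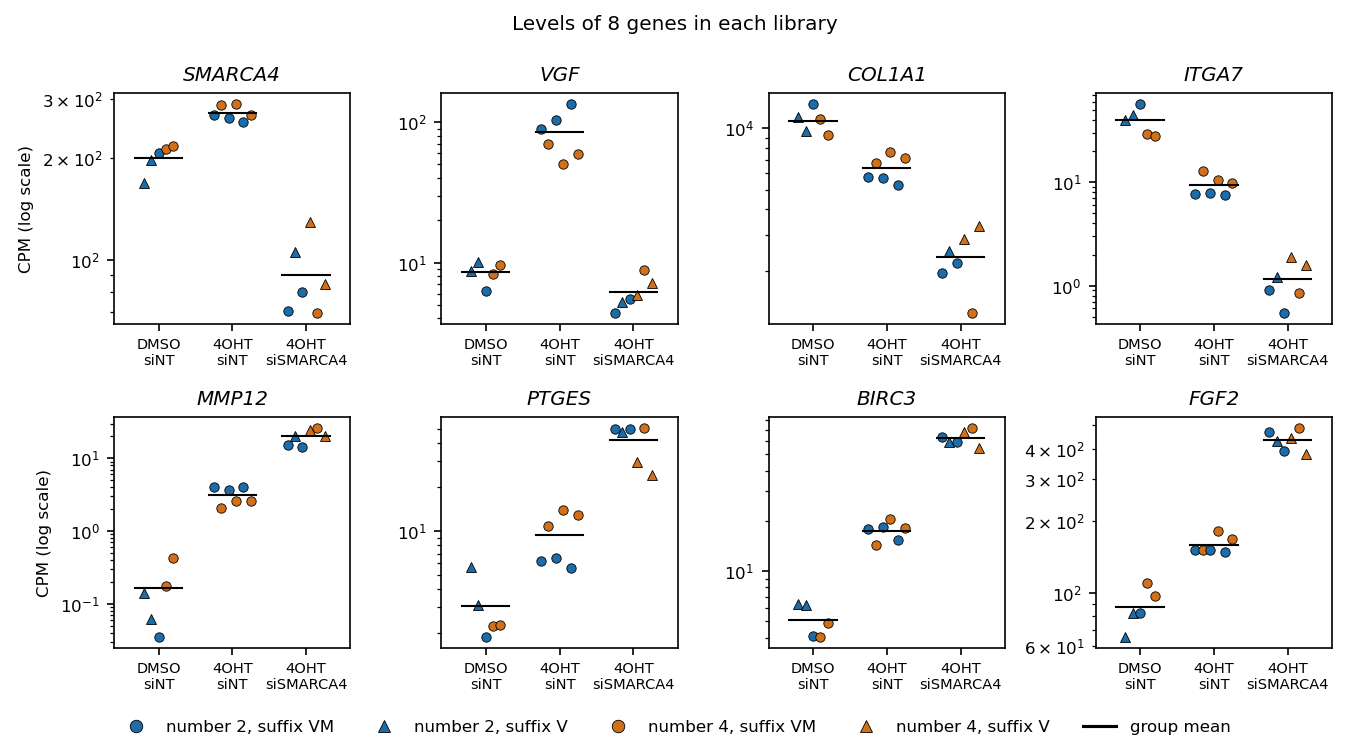
Levels of 8 genes in every library, in TMM-scaled CPM on a log axis, for DMSO siNT, 4OHT siNT and 4OHT siSMARCA4. Each point is 1 library, with colours for the siRNA number and circles or triangles for tags ending in VM or V; siSMARCA4 libraries lay below all siNT libraries in 4OHT for SMARCA4 and VGF (at most 8.91 CPM) and above them for MMP12 (at least 14.3 CPM).

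Across 19473 genes tested, 4730 were called at an adjusted p under 0.05, 24.3% of all genes. Of these, 2162 were higher with siSMARCA4 (11.1%) and 2568 lower (13.2%). Without a filter on low counts 2012 were higher and 1819 lower. With a filter of 50 counts in 6 libraries these were 2176 and 2140, so the excess of falls depended on the filter. The larger changes were mostly falls: 678 of the 924 genes that changed at least 2-fold were lower, as were 112 of the 139 that changed at least 4-fold. For 2337 genes (12%), siSMARCA4 and siNT libraries did not overlap at all. Restricting the comparison to VM libraries gave 5287 calls, and using only the V libraries of siSMARCA4 gave 1636. With V or VM as a covariate 5396 genes were called, 4092 of the 4730 among them. With the share of repeat counts as a covariate, which itself differed between the groups, 1633 genes were called. A total of 1126 genes (5.78%) were called in the same direction over all libraries and in the contrast of each siRNA number. Of these, 466 were higher and 660 lower. Both contrasts took their spread from a model of all 17 libraries. Fitted on its own 6 libraries, number 2 gave 5258 calls and number 4 gave 901.

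The deepest falls were those of VGF, MEST and ITGA7, taken from the genes called with both siRNA numbers, without overlap between libraries and with at least 5 CPM in the higher group. VGF, the precursor of secreted neuropeptides, was at 50.2, 79.2 and 135 CPM in the lowest, median and highest siNT library, and at 4.37, 5.70 and 8.91 CPM in siSMARCA4. Only 7.31% of its transcript was left (log2 change -3.77 ± 0.23 SE, adjusted p = 5.1e-08 by edgeR). This put VGF near its DMSO mean of 8.59 CPM. MEST, an imprinted hydrolase-like gene, fell by 3.07 on the log2 scale, and ITGA7, a laminin-binding integrin chain, by 2.99. ITGA7 was at 7.49, 8.87 and 12.8 CPM in siNT and at 0.541, 1.06 and 1.89 CPM in siSMARCA4, with every siSMARCA4 library far below the siNT range. The same group held COL11A1 (-2.61), a fibrillar collagen chain, and MFAP4 (-2.48), a microfibril glycoprotein. It also held NEFL, the light neurofilament (-2.42), ANK3, the ankyrin of axon initial segments (-2.29), and the neuronal membrane protein PLPPR4 (-2.78). PMEL (-2.83), CPA4 (-2.19), a secreted carboxypeptidase, and G0S2 (-2.18), an inhibitor of triglyceride lipase, were further members of the 12 largest falls. The next gene in order, AFAP1L2, fell by 2.17.

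By the same criteria, the largest rises were led by PLSCR4, a member of the phospholipid scramblases, at 2.73 on the log2 scale, and by MMP12, the macrophage elastase. MMP12 (ENSG00000262406; chromosome 11, 102862736 to 102874982) was at 2.06, 3.14 and 4.02 CPM in siNT and at 14.3, 20.2 and 26.1 CPM in siSMARCA4 (log2 change 2.67 ± 0.26 SE, adjusted p = 3.7e-06 by edgeR). The lowest siSMARCA4 library thus held more than the highest siNT library. GPRC5A (2.52), an orphan receptor, the chemokine CXCL10 (2.39), the secreted proteoglycan ESM1 (2.27), the stromelysin MMP10 (2.24) and the guidance cue NTN1 (2.23) rose as well. PTGES, the inducible prostaglandin E synthase, went from 5.61, 8.67 and 13.8 CPM to 24.0, 48.5 and 50.6 CPM. C15orf48 (2.07) and MIR147B (2.22) occupy the same transcript and count as 1 signal, and PLPPR3 (2.27) and the unnamed lncRNA ENSG00000240801 (2.14) complete the group. This lncRNA lies among the overlapping transcripts of the IGF2 locus, so its rise cannot be separated from that of IGF2. The next gene, B4GALNT1, rose by 2.03. Among these 12, GPRC5A spanned 5.93 to 29.8 CPM in siSMARCA4 and PLSCR4 1.93 to 13.2 CPM, the VM-only log2 fold changes being 3.06 and 3.38 and those of the V libraries 1.67 and 1.55.

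The promoters of 2 of the genes that fell furthest are shown because they hold recognition sequences of signal-responsive factors. Searches covered both strands of the 250 bases before each start site for 3 motifs, none of which contains another: TGACTCA for AP-1, TGACGTCA for the cyclic AMP response element (CRE) and GGAATG for TEAD. Sequences are from RefSeq on GRCh38.p14, with motifs in capitals, and 134 of 201 genes named by the rules had an entry. VGF, at chr7:101165570-101165819 on the minus strand, holds 1 CRE, and CPA4, at chr7:130292911-130293160 on the plus strand, holds 2 AP-1 sites and 1 TEAD site.
VGF: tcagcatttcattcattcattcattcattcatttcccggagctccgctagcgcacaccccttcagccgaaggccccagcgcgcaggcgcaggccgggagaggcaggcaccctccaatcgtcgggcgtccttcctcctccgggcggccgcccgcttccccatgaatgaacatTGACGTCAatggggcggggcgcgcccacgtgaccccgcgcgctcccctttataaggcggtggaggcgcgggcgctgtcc
CPA4: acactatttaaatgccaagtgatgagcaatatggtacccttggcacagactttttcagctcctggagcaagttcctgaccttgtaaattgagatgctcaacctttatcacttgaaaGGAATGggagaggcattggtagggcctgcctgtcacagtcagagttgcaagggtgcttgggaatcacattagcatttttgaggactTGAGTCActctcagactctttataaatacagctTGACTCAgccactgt
VGF was the only one of the 134 with a CRE, while 5 held AP-1 and 19 TEAD. Among 1722 promoters of protein-coding genes called lower, 3.25% held AP-1, 2.44% CRE and 9.76% TEAD. For 1474 promoters of genes called higher the shares were 2.37%, 2.85% and 9.43%. The background of both groups, 11090 promoters of protein-coding genes tested, held 2.63%, 2.87% and 9.50%. Among genes called with both siRNA numbers, AP-1 was found in 3.25% of 461 promoters of genes called lower and in 3.06% of 327 of genes called higher, and CRE in 1.74% and 3.06%. No test of these shares was run. All 27305 promoters of the table, which include genes not tested, held 4.16%, 1.77% and 11.9%. None of these shares is evidence of binding.

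Next, 50 programme lists with 1306 genes, 1200 of them tested, were read against the 11.1% of all genes called higher and the 13.2% called lower. The median log2 fold change of all genes was -0.01. Fewer genes were called over the whole table in 2 of the alternatives quoted below, so list counts are to be read against that. Genes called higher and lower numbered 2386 and 2901 with VM libraries only, 750 and 886 with the V libraries of siSMARCA4, and 735 and 898 with the repeat share as a covariate. Most collagen and matrix glycoprotein genes tested were called lower. Of 24 collagen genes tested, 15 were lower and 0 higher, with a median of -0.54 and a range from -2.61 to 0.54. Of 28 elastic fibre and matrix glycoprotein genes, 20 were lower and 0 higher (median -0.53). Their medians were -0.68 and -0.60 with VM libraries only and -0.56 and -0.53 with the V libraries of siSMARCA4. The counts moved more than the medians. The collagen genes called lower were 14 with VM libraries only, 9 with the V libraries and 10 with the repeat share as a covariate. The glycoprotein genes called lower were 19, 13 and 9 in the same order, and 1 was higher with VM libraries only. In the contrasts of both siRNA numbers, 6 collagen and 10 glycoprotein genes were lower and 0 were higher.

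COL1A1, the chief chain of type I collagen, was at 5262, 6266 and 7614 CPM in the lowest, median and highest siNT library and at 1242, 2343 and 3317 CPM in siSMARCA4 (log2 change -1.44 ± 0.18 SE, adjusted p = 3.4e-05 by edgeR). No siSMARCA4 library reached the siNT range, and 36.7% of this abundant transcript was left. Its partner chain COL1A2 fell by 1.48, from 2072 ± 341 to 744 ± 183 CPM (SD, n = 6 each), and the siSMARCA4 4-2VM library was the lowest of all. COL10A1, a network collagen, was reduced to 28.7% of its siNT mean. Among glycoproteins, the microfibril protein FBN2 was reduced from 88.3 ± 10.7 to 31.8 ± 9.99 CPM (log2 fold change -1.47) and THBS2, a thrombospondin, from 45.0 ± 8.94 to 20.6 ± 5.68 CPM (-1.13). Both groups of libraries were separate for these genes.

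Other matrix and adhesion lists leaned the same way with exceptions. Of 12 laminin and perlecan genes, 6 were lower and 1, LAMA3, was higher. LAMA4, a vessel and mesenchymal laminin chain, fell from 112 ± 9.28 to 33.6 ± 15.01 CPM (SD, n = 6 each), with siSMARCA4 4-2V and 4-3V the highest of the 6. Proteoglycan genes had 8 of 21 lower and 1 higher. BGN, the small leucine-rich proteoglycan biglycan, was left at 30.5%, with a VM-only log2 fold change of -2.74 against -1.11 in the V libraries. In collagen processing, 8 of 18 genes were lower and 2 higher. PCOLCE, which enhances cleavage of procollagen, and LOXL4, a crosslinking amine oxidase, fell by 1.09 and 1.38. By contrast, P4HA3, a prolyl hydroxylase chain, rose by 1.25, with 2.29 for siRNA number 2 and 0.13 for number 4. Integrins were split, with 5 of 16 lower and 2 higher, and the falls included the laminin receptor ITGA6 (-1.26) and the collagen receptor ITGA11 (-1.61) next to ITGA7. Cadherins had the lowest median of the adhesion lists at -0.89, with 9 of 14 genes lower and 0 higher. PCDH7 (-2.04) and PCDH10 (-1.66), both protocadherins, and CDH11 (-1.49), the mesenchymal cadherin, led that list.

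**Figure D2:**
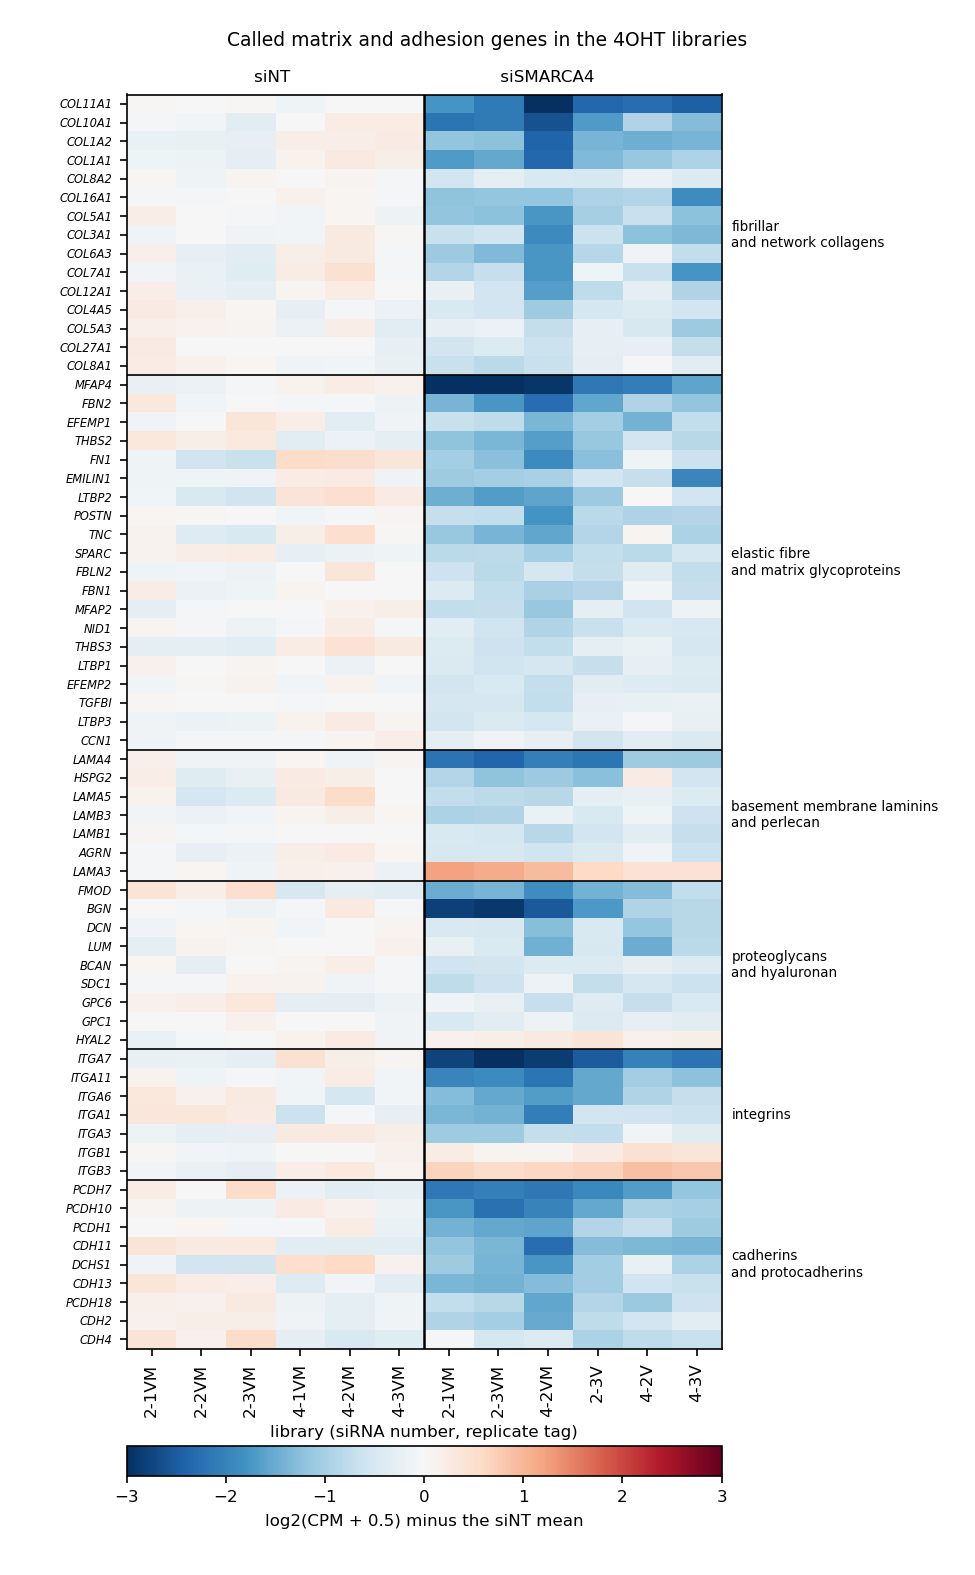
Deviation of 67 called matrix and adhesion genes from their mean in 4OHT siNT (log2 of TMM-scaled CPM) in each of the 12 libraries, with genes grouped by list. Most genes lie below the siNT mean in all siSMARCA4 libraries, and the V libraries 4-2V and 4-3V are paler than the VM libraries for most genes.

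Of the 12 fibroblast markers, 6 are matrix genes themselves (COL1A1, COL1A2, COL3A1, FN1, DCN and LUM), and the part of a change in cell makeup in these results was not tested. In the whole list, 9 were lower and 0 higher (median -0.89), and their summed level ranged from 17920 to 26973 CPM in siNT and from 9653 to 16937 CPM in siSMARCA4. All 12 stayed above 1 CPM. Of the markers that are not matrix genes, THY1, PDGFRB and S100A4 were lower. The other 3 overlapped between groups and were not called: VIM, the intermediate filament vimentin, was at 5214 to 6365 CPM in siNT and 5259 to 6330 CPM in siSMARCA4, PDGFRA at 120 to 148 and 91.8 to 151 CPM, and FAP at 92.1 to 114 and 68.4 to 118 CPM. PDGFRB, a receptor of platelet-derived growth factor, fell to 41.7%, DCN, the proteoglycan decorin, to 58.7% and LUM to 59.0% of the siNT mean, LUM not passing the test with VM libraries only. Markers of other cell types were summed likewise. Epithelial markers ranged from 66.4 to 84.8 CPM in siNT and from 37.3 to 61.0 CPM in siSMARCA4, with 4 of 10 above 1 CPM. Of the 6 tested, 5 were lower and 0 higher (median -0.69), a larger share than among fibroblast markers, but 1 was lower with the V libraries of siSMARCA4 and 1 with the repeat covariate. Endothelial markers (5 of 8 above 1 CPM) ranged from 12.95 to 17.2 and from 8.50 to 12.6 CPM, leukocyte markers (1 of 9) from 22.7 to 29.8 and from 21.4 to 31.2 CPM, and neuronal markers (4 of 8) from 271 to 329 and from 223 to 394 CPM. By edgeR, 1 of 6 endothelial, 2 of 5 neuronal and 0 of 3 leukocyte markers tested were lower, the last with 1 at an unadjusted p under 0.05, and 0 of these were higher.

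Actin genes were called in both directions, mostly lower. Of 28 genes of actin and its regulators, 14 were lower and 4 higher (median -0.33). CAVIN2, which shapes caveolae, fell by 1.71 and the crosslinker FLNC by 0.82, whereas RND3, an atypical small GTPase that loosens stress fibres, rose by 0.71 ± 0.12 SE, its mean going from 531 ± 61.7 to 871 ± 36.8 CPM (SD, n = 6 each; adjusted p = 0.0003 by edgeR). Targets of YAP and TEAD, the mechanosensitive co-activator and its DNA-binding partner, had 9 of 22 lower and 0 higher, with MYOF (-0.74), F3 (-0.63) and ARHGEF17 (-0.61) in front. Only 3 of 20 smooth muscle contractile genes were lower and 1 was higher, close to background, although ACTG2, the enteric smooth muscle actin, fell to 29.6%, MYLK, the myosin light chain kinase, to 56.5% and SMTN to 69.1% of siNT.

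Growth factor and developmental signalling changed in both directions. In the WNT list, 14 of 31 genes were lower and 5 higher (8 and 1 with the V libraries, 6 and 2 with the repeat covariate). SFRP1 and DKK2, secreted modulators of the pathway, fell by 1.07 and 1.69 (DKK2 at -3.07 with VM libraries only and -1.0 with the V libraries), whereas the ligand WNT9A rose from 20.5 ± 2.28 to 55.2 ± 29.6 CPM (SD, n = 6 each) with overlapping libraries. Of 17 NOTCH genes, 6 were lower and 2 higher, and 2 were called each way with the V libraries or the repeat covariate. The ligand JAG1 was among the former, and JAG2 (0.79) and the target HES4 (1.12) were the latter. Feedback regulators of RAS and MAPK signalling had 9 of 25 lower and 3 higher. These became 4 lower and 2 higher with the V libraries of siSMARCA4, and 2 lower and 2 higher with the repeat covariate, where falls no longer outnumbered rises. The ERK phosphatase DUSP4 was at 58.9, 76.5 and 91.7 CPM in siNT and at 12.8, 23.4 and 38.8 CPM in siSMARCA4, without overlap (log2 change -1.64 ± 0.23 SE, adjusted p = 0.0001 by edgeR). The immediate-early factor EGR2 (-1.21) and the pathway inhibitor SPRY4 (-0.76) fell as well. In the AP-1 and ATF list, 4 of 25 genes were higher and 3 lower, close to background. When 1 library was left out, 1 to 6 were higher and 2 to 4 lower.

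FGF2, basic fibroblast growth factor, was at 148, 151 and 181 CPM in siNT and at 380, 438 and 488 CPM in siSMARCA4 (log2 change 1.45 ± 0.11 SE, adjusted p = 2.2e-07 by edgeR), and the rise was 1.52 with VM libraries only and 1.40 with the V libraries. Its list as a whole had 6 of 29 genes higher and 4 lower, including NTF3, a neurotrophin, at -1.61. With VM libraries only, 6 genes were higher and 8 lower, and NTF3 was at -1.90. In the TGF-beta and BMP list, 5 of 26 genes were higher and 3 lower, but 1 to 4 were higher and 2 to 5 lower when 1 library was left out, and 2 were higher and 0 lower with the V libraries. The ligand BMP6 rose by 1.65, while LTBP2, a microfibril-associated protein related to the binders of latent TGF-beta, fell by 0.99 (-1.62 with VM libraries only and -0.55 with the V libraries, where it did not pass). Of 7 EGF family genes, 3 were higher (HBEGF 0.74, NRG1 0.54 and EREG 0.34), of which NRG1 and EREG did not pass with VM libraries only, where 1 gene of the list was higher and 2 lower. IGF genes had 3 of 13 higher and 5 lower, but as many higher as lower with VM libraries only (4 each), with the V libraries (1 each) and with the repeat covariate (1 each). IGFBP5, among the most abundant binding proteins here, ranged from 3862 to 5971 CPM in siNT and from 660 to 3757 CPM in siSMARCA4. Its 3 VM libraries were at 660 to 868 CPM and its 3 V libraries at 2274 to 3757 CPM. IGFBP2 fell by 1.36. IGF2 rose by 1.77, but it overlaps INS-IGF2 and the counts of the locus cannot be assigned to 1 gene.

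Lists of genes known from neurons and endocrine cells had more members called lower than higher, in cells that express some neuronal markers and not others. In siNT, TUBB3, NEFL and NEFM of the 8 neuronal markers were at 256 to 301, 9.41 to 19.7 and 4.52 to 7.37 CPM, whereas RBFOX3 and DCX did not exceed 0.16 CPM. Of 27 voltage-gated channel genes, 11 were lower and 3 higher (median -0.55). With both siRNA numbers 2 were lower and 0 higher, the medians being -0.62 with number 2 and -0.43 with number 4. The count was 12 lower and 4 higher with VM libraries only, 2 lower and 1 higher with the V libraries (median -0.39), where 886 of all genes were lower against 2901 with VM libraries, and 6 lower and 0 higher with the repeat covariate. The potassium channel KCNC4 was at -0.78 over all libraries, at -1.40 with VM libraries only and at -0.34 with the V libraries (adjusted p = 0.31 by edgeR), and KCNJ2, an inward rectifier, was at 1.05. Guidance genes had 15 of 42 lower and 2 higher (8 and 1 with the V libraries, 10 and 1 with the repeat covariate). SEMA7A, a membrane-anchored semaphorin, was at 474, 499 and 605 CPM in siNT and at 72.8, 122 and 263 CPM in siSMARCA4, again without overlap. PLXNA2, a semaphorin receptor, fell by 1.41, against the rise of NTN1. Of 14 neuroendocrine peptide and granule genes, 5 were lower and 1 higher (median -0.06). With VM libraries only or with V or VM as a covariate, 4 of these were lower and 3 higher. With the V libraries, 4 were lower and 1 higher. CPE, a prohormone carboxypeptidase, accompanied VGF at -0.71, whereas the granin SCG2 rose by 1.34, or by 1.80 with VM libraries only and 0.70 with the V libraries (adjusted p = 0.20 by edgeR). Synaptic and neurite genes had 5 of 16 lower and 2 higher, with the calcium sensor SYT1 at -1.56, the adhesion molecule L1CAM at -1.22 (-2.04 with VM libraries only, -0.69 and not called with the V libraries) and the neuroligin NLGN2 at -0.58.

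The 2 cyclooxygenase genes, which start prostaglandin synthesis, changed in opposite directions. PTGS2, the inducible cyclooxygenase, was at 168, 182 and 292 CPM in siNT and at 507, 588 and 797 CPM in siSMARCA4 (log2 change 1.62 ± 0.17 SE, adjusted p = 7.5e-06 by edgeR). PTGS1, its constitutive counterpart, moved the other way, from 41.1, 58.5 and 72.6 CPM to 7.31, 14.1 and 15.9 CPM (-2.10 ± 0.26 SE, adjusted p = 3.4e-05 by edgeR). Together with PTGES, these genes showed no overlap between groups. The whole list had 6 of 16 genes higher and 3 lower. Metalloproteinases and their inhibitors had 6 of 34 higher and 12 lower over all libraries, and MMP12, MMP10 and MMP3 (from 683 ± 43.0 to 1882 ± 526 CPM; SD, n = 6 each) were among those that rose. Falls outnumbered rises with VM libraries only (8 higher and 14 lower), with V or VM as a covariate (6 and 14), with DESeq2 (7 and 12) and when any 1 library was left out (5 to 6 and 9 to 12). They did not with the V libraries of siSMARCA4 (5 and 3), with the repeat covariate (5 and 4) or for genes called with both siRNA numbers (5 and 2).

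Survival and NF-kB genes were called in both directions. BIRC3, an inhibitor of apoptosis protein that NF-kB induces, was at 14.3, 18.1 and 20.6 CPM in siNT and at 54.8, 61.5 and 71.9 CPM in siSMARCA4 (log2 change 1.85 ± 0.12 SE, adjusted p = 5.1e-08 by edgeR). The rise was 1.82 with number 2 and 1.87 with number 4. BIRC2, its neighbour on chromosome 11, rose by 0.67, and BMF, a BH3-only death inducer, fell by 1.07. Of 22 apoptosis genes, 5 were higher and 4 lower. NF-kB regulators had 6 of 19 higher and 1 lower. These were 4 and 2 with VM libraries only, 6 and 0 with the V libraries, and 1 and 1 with the repeat covariate, where rises no longer outnumbered falls. The list held RELB at 0.53, NFKBIZ at 0.45 and the kinase IKBKE at -0.60. NFKBIZ did not pass with VM libraries only. Among TNF superfamily genes, 4 of 19 were higher and 7 lower. TNFSF4, the OX40 ligand, and TNFRSF10C, a decoy receptor, fell by 1.69 and 1.41, and TNFRSF1B rose by 0.97. In the complement and coagulation list, 9 of 29 were higher and 6 lower, with THBD, thrombomodulin, at 1.27 and the plasminogen activator PLAT at -0.80. That list had 8 higher and 8 lower with VM libraries only, and 8 higher and 9 lower with V or VM as a covariate. Of 25 p53 target genes, 6 were lower and 0 higher, among them BTG2 (-0.79), SPATA18 (-0.58) and the death receptor FAS (-0.48), and 6 members were also called for a difference between siRNA numbers, against 0.719% of all genes in a contrast whose count fell to between 7 and 39 without any of 8 single libraries.

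In 4 organelle and stress lists, rises outnumbered falls. Lysosome and autophagy genes had 15 of 37 higher and 3 lower (median 0.21). HEXA, a lysosomal hexosaminidase, rose from 85.4 ± 5.91 to 133 ± 20.4 CPM (SD, n = 6 each) and ATP6V0D2, a proton pump subunit, from 5.11 ± 0.592 to 14.8 ± 7.22 CPM, whereas the collagen-degrading cathepsin CTSK fell by 0.60. NRF2 targets and antioxidant genes had 13 of 34 higher and 4 lower (median 0.19). The mitochondrial dismutase SOD2 rose by 1.12, with the caveat that its identifier overlaps other genes, PIR by 1.21 and SOD3 by 1.70. SLC7A11, the cystine transporter that also belongs to the ATF4 targets (6 of 23 higher and 2 lower), rose from 54.5 ± 10.9 to 118 ± 43.9 CPM. CEBPG, a bZIP factor, rose by 0.46 and NUPR1 fell by 1.46, NUPR1 not with VM libraries only. Of 11 metallothionein and zinc transport genes, 5 were higher and 1 lower (median 0.51), including SLC39A14 (0.61), MT1E (0.62) and MT1L (1.08). Metallothioneins are near-identical copies, so the split between them is uncertain. VM libraries only gave 20 lysosome and 16 NRF2 genes higher and the V libraries 5 and 6, next to the drop from 2386 to 750 over all genes.

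Cholesterol synthesis and uptake genes had 6 of 26 higher and 1 lower over all libraries, 15 higher with VM libraries only and 2 higher with the V libraries. When 1 library was left out, 3 to 8 were higher and 1 lower. The enzyme MSMO1 rose from 105 ± 22.3 to 154 ± 31.9 CPM (SD, n = 6 each), with overlapping libraries, and the sterol sensor INSIG1 rose by 0.59, or by 0.96 with VM libraries only against 0.12 with the V libraries (adjusted p = 0.61 by edgeR). ACSL4, which activates arachidonic acid, rose to 205% of the siNT mean, and SREBF1, a master regulator of lipid synthesis, rose by 0.49, whereas DGAT2 fell by 0.95. Their list had 3 of 27 genes higher and 2 lower. By contrast, 0 of 54 cytosolic ribosomal protein genes were called by edgeR in either direction (range -0.19 to 0.29; 1 at an unadjusted p under 0.05). Glycolysis (3 of 27 higher, 4 lower), hypoxia targets (3 of 21 higher, 1 lower), respiratory chain (6 of 46 higher, 4 lower), ribosome biogenesis (1 of 30 higher, 3 lower), the unfolded protein response (1 of 26 higher, 2 lower) and heat shock chaperones (3 of 21 higher, 5 lower) were the other metabolic and stress lists. Respiratory chain genes were 2 to 9 higher and 0 to 4 lower when 1 library was left out. They were 1 higher and 0 lower with the V libraries or the repeat covariate. With V or VM as a covariate, 4 hypoxia targets were higher and 5 lower, and 5 heat shock chaperones were higher and 3 lower.

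**Figure D3:**
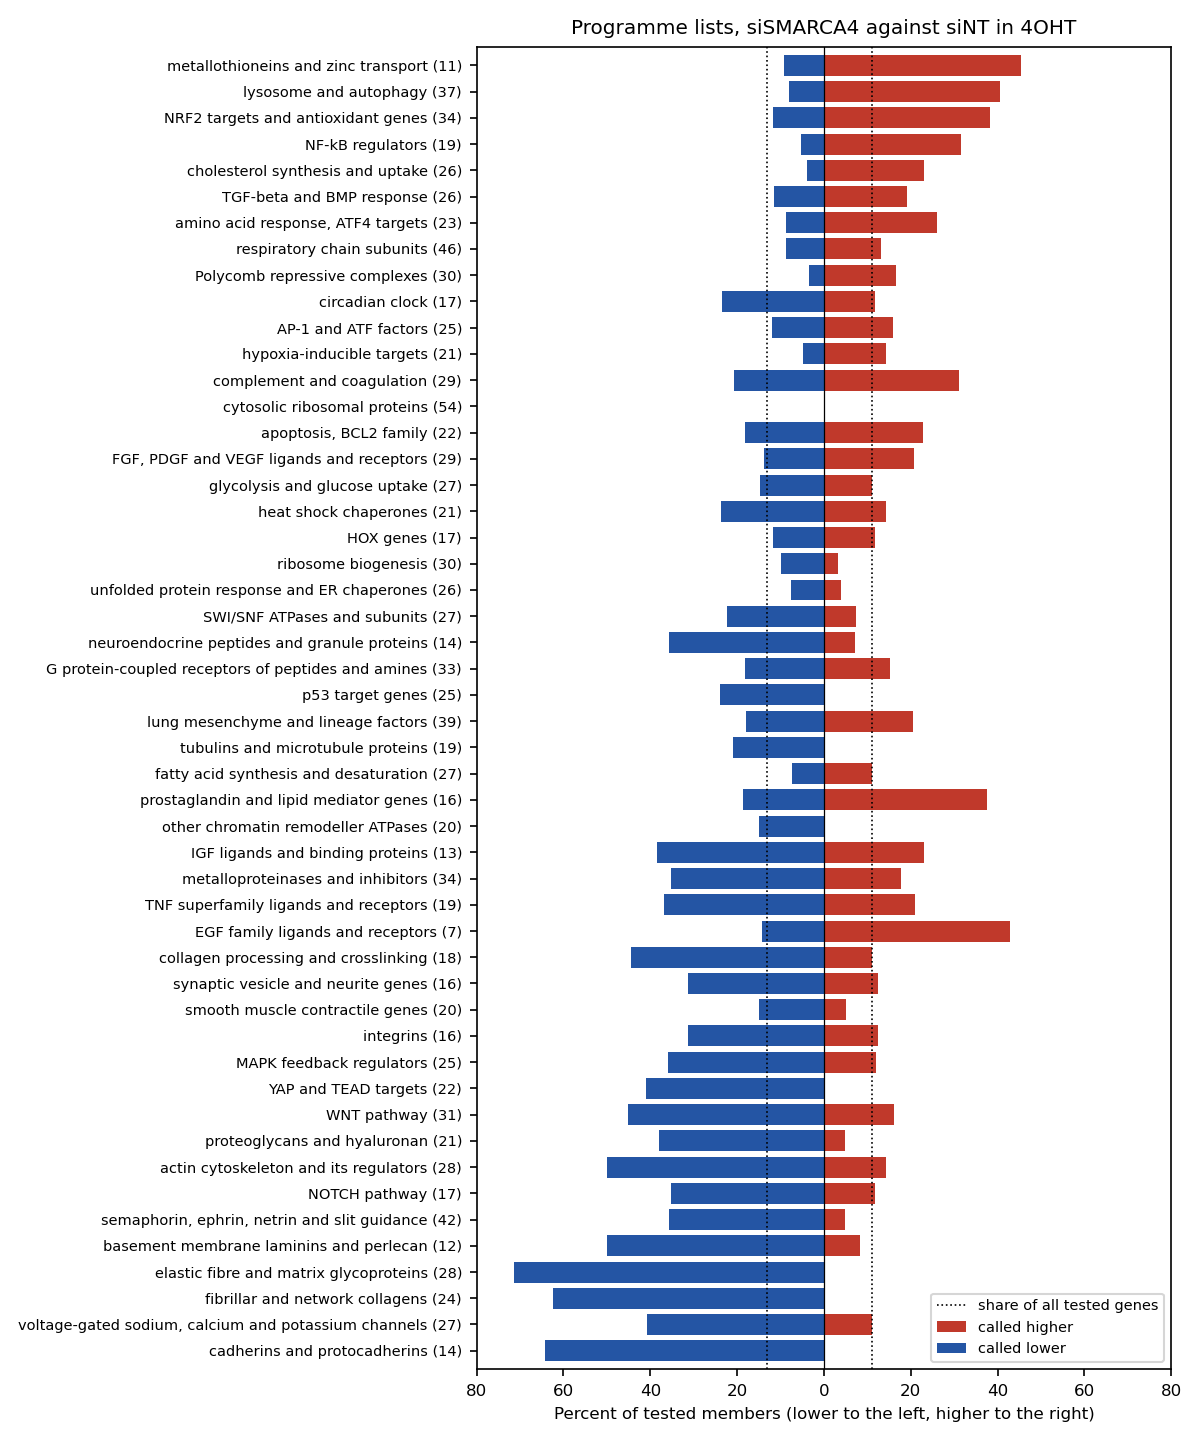
Share of tested members called higher (right) and lower (left) in each of the programme lists, in percent, with the background over all 19473 genes as dotted lines at 11.1% and 13.2% and the number of members tested in brackets. Matrix glycoproteins, cadherins and collagens reach furthest to the left, and metallothioneins, EGF family and lysosome genes furthest to the right.

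SWI/SNF, Polycomb and HOX genes were called at shares close to the 24.3% of all genes. Besides SMARCA4 and SMARCA2, 4 other of 27 SWI/SNF genes were lower and 2 higher, led by BCL7A at 0.63. Of 20 other remodeller ATPases, 3 were lower (SRCAP -0.50, CHD4 -0.38 and BAZ1B -0.29) and 0 higher. Between 2 and 7 were lower when 1 library was left out, and 0 by edgeR with the V libraries or the repeat covariate. Polycomb genes had 5 of 30 higher and 1 lower, with PCGF6 (0.44), RNF2 (0.36) and BMI1 (0.35) at modest changes, PCGF6 not with VM libraries only. HOX genes had 2 of 17 higher, HOXB4 (0.79) and HOXA5 (0.69), and 2 lower, among them HOXB3 (-0.42). Of 39 lung mesenchyme and lineage factors, 8 were higher and 7 lower. NFIX, a nuclear factor I protein, was reduced from 54.3 ± 7.74 to 27.3 ± 7.03 CPM (SD, n = 6 each) and the limb and lung factor TBX5 from 11.3 ± 1.35 to 6.97 ± 0.935 CPM, while KLF4 rose by 0.78. Clock genes (2 of 17 higher, 4 lower), tubulins (0 of 19 higher, 4 lower) and receptors of peptides and amines (5 of 33 higher, 6 lower) completed the lists.

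Over the 50 lists, 30 had more genes lower than higher, 18 more higher and 2 as many of each. With only the V libraries of siSMARCA4 these were 26, 18 and 6, and 5 lists leaned the opposite way: AP-1 and ATF factors, clock genes, glycolysis, lineage factors and metalloproteinases. With VM libraries only, 4 lists did so, namely the EGF and FGF families, fatty acid synthesis and heat shock chaperones. With the repeat covariate, clock genes and metalloproteinases did. With V or VM as a covariate, 3 did, namely complement and coagulation, hypoxia targets and heat shock chaperones. Blocking by replicate tag turned 4 lists, and a filter of 50 counts in 6 libraries turned 3. Of 138 called values of named genes, 7 did not pass with VM libraries only and 39 with the V libraries. Besides those given above, the latter included FLNC, SMTN, F3, ARHGEF17, EGR2, JAG1, IGFBP5, PLXNA2, P4HA3, EREG, MSMO1, SREBF1, DGAT2, ATP6V0D2, CTSK, SOD3, RELB, IKBKE, FAS, SPATA18, KLF4, BMI1, HOXA5, HOXB3, HOXB4, CHD4, BAZ1B, SRCAP, COL7A1, PCDHGC3 and FLG-AS1. The fold changes with VM libraries only and with the V libraries differed by over 2-fold for KCNC4, SCG2, L1CAM, LTBP2, DKK2, BGN, GPRC5A, PLSCR4, IGFBP5, EGR2, COL10A1, MFAP4, ITGA7, SEMA7A, SYT1, SOD3, ATP6V0D2, P4HA3, SLC7A11, IGF2 and ENSG00000240801 of the same locus, NUPR1, FLG-AS1 and the LCE genes described below, the change being larger with VM libraries in each but NUPR1.

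Then the 2 siRNA numbers were compared, each against the siNT libraries of its own number, so that the compared means share no library. The spread was estimated over all 17 libraries for both. Number 2 gave 3357 calls (17.2%), with 1329 higher and 2028 lower. Number 4 gave 2717 (14%), with 1574 higher and 1143 lower, so that falls outnumbered rises with number 2 only. Of these, 1144 genes were called with both, 18 in opposite directions and 1126 in the same direction, the latter being 33.5% of the number 2 calls and 41.4% of the number 4 calls. Both totals rest on few libraries, and siNT 2-2VM and 2-3VM were far closer to each other than any other siNT pair in 4OHT. Number 2 gave 1856 calls without siSMARCA4 2-3VM, and number 4 gave 1147 without siNT 4-2VM and 901 from its own 6 libraries. Of the genes called with number 2, 3004 (89.5%) had the same sign with number 4, called or not, and 2351 (86.5%) of the genes called with number 4 had the same sign with number 2. Over all genes the share was 67.2%. As a description across 19473 genes, which are not independent replicates, Pearson's r between the fold changes was 0.55 and Spearman's coefficient 0.47. Over the 1126 shared calls, the median absolute log2 fold change was 0.80 with number 2 and 0.73 with number 4, and 702 of them changed more with number 2. These were 5.78% of all genes, and some lists kept few. Lower with both were 2 of 27 channel genes, 3 of 22 YAP and TEAD targets and 1 of 25 p53 targets. Higher with both were 1 of 26 cholesterol genes, 0 of 30 Polycomb genes and 0 of 7 EGF family genes. None of these lists had shared calls the other way. The median of p53 targets was -0.25 with number 2 and 0.01 with number 4.

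**Figure D4:**
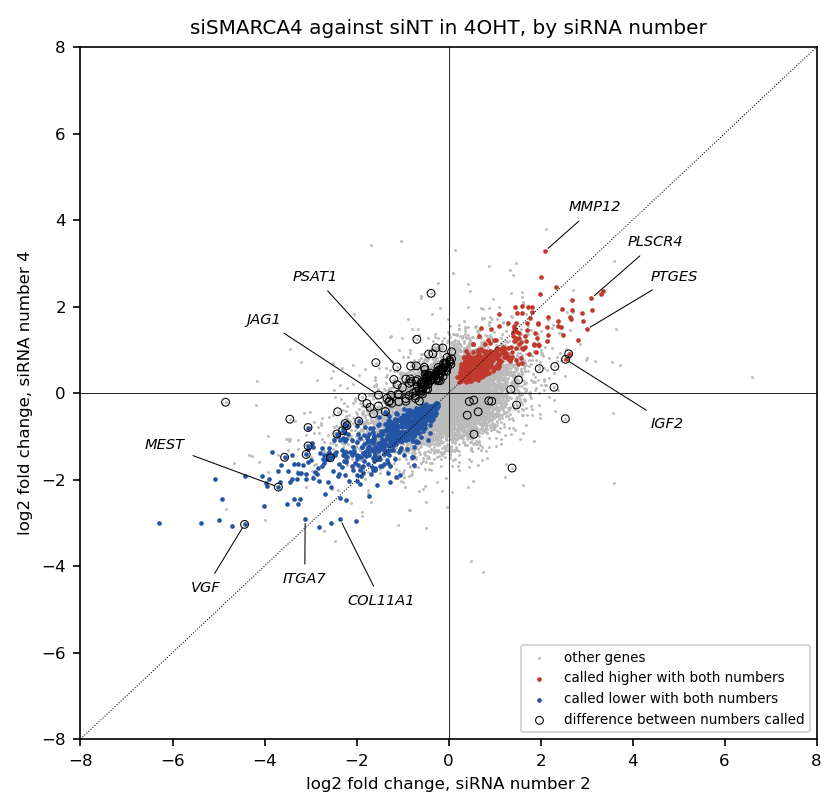
Log2 fold change of siSMARCA4 against siNT for siRNA number 2 (horizontal) and number 4 (vertical), 1 point per gene of 19473. Coloured points are the 466 genes called higher and 660 called lower over all libraries and with both numbers, the dotted line marks equal change, and open circles are the 140 genes called for the difference between numbers.

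A difference between the numbers was called for 140 genes (0.719%), of which 123 were more negative with number 2. The numbers are not balanced for the tag ending: siSMARCA4 number 2 has 2 VM libraries and 1 V library, and number 4 has 1 VM library and 2 V libraries. With V or VM as a covariate, 207 genes were called, among them 137 of the 140. The siNT libraries differed between numbers too. In the same model, siNT number 2 differed from siNT number 4 at 699 genes, whereas siSMARCA4 number 2 differed from siSMARCA4 number 4 at 45, a contrast added after the data were seen. JAG1 averaged 77.4 CPM in siNT 2, 38.13 in siNT 4, 26.95 in siSMARCA4 2 and 36.9 in siSMARCA4 4, so that the log2 changes differed by -1.48 ± 0.17 SE (adjusted p = 0.0012 by edgeR). PSAT1, a serine synthesis enzyme, averaged 33.9, 14.1, 15.6 and 21.4 CPM in the same order (-1.73 ± 0.19 SE, adjusted p = 0.0012 by edgeR). For both genes the 3 siNT 2 libraries stood above the rest. AHSA2P (1.05), C6orf120 (-0.84), DDR1 (0.92), a collagen receptor kinase, and FLRT3 (-1.25), an adhesion protein, came next. In FLRT3, siNT differed little (56.4 and 49.9 CPM) and siSMARCA4 did (29.7 and 62.5 CPM). VGF fell further with number 2 than with number 4 (-4.43 against -3.04; edgeR adjusted p = 0.032). The count of 140 was sensitive to single libraries: it was 7 without siNT 2-3VM and 572 without siSMARCA4 4-2VM.

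Finally, the genomic position of the called genes was described. Protein-coding genes were called higher in 13.1% and lower in 15.6% of 14193 cases, lncRNAs in 6.01% and 6.43% of 3761, and pseudogenes in 4.53% and 6.79% of 928. Protein-coding genes were also split by length into 5 equal groups. In the longest group, which spans 103 to 2299 kb, 22.5% were lower and 9.79% higher, with a median of -0.11. In the shortest group, up to 10.7 kb, 11.8% were lower and 11.6% higher. The corresponding shares for the longest genes were 25.3% and 10.99% with VM libraries only and 7.57% and 3.35% with the V libraries of siSMARCA4. Those for the shortest genes were 13.6% and 15.4% with VM libraries only and 4.86% and 3.77% with the V libraries. Genes called lower had a median length of 44.4 kb, against 32.5 kb for those called higher and 34.0 kb for all tested. Among genes called with both siRNA numbers this difference was nearly absent, at 37.2 kb for 606 lower and 36.8 kb for 429 higher genes.

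**Figure D5:**
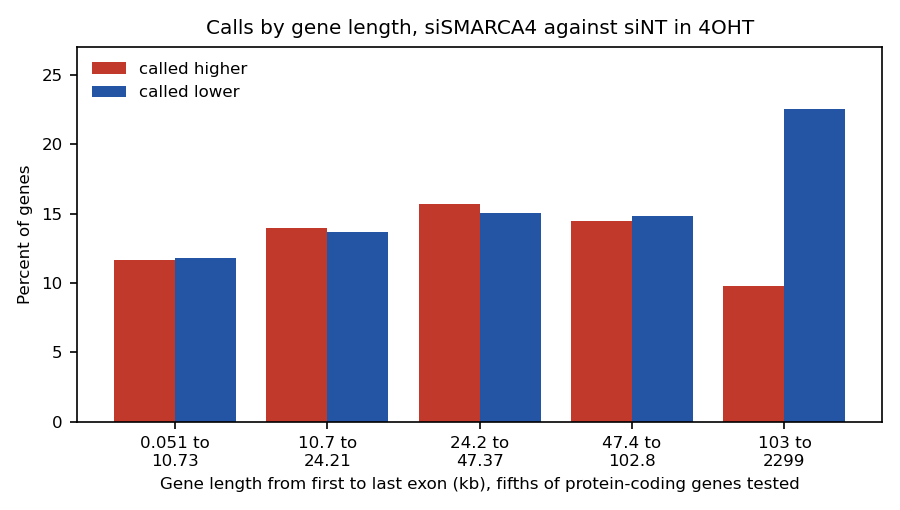
Share of protein-coding genes called higher and lower with siSMARCA4, in percent, in 5 equal groups by gene length from shortest to longest. The share called lower is 22.5% in the longest group, where the share called higher is 9.79%.

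There were 15 runs of at least 5 neighbouring tested genes called in the same direction, 6 higher and 9 lower. They held 32 of the 2162 genes called higher and 58 of the 2568 called lower. Whether runs were more frequent than such calls would give by chance was not tested. The longest, of 11 genes, covered the end of the gamma protocadherin cluster to DIAPH1 (chromosome 5, 141397947 to 141619055). The protocadherins there share their last exons, so their counts are not independent, and PCDHGC3 was the most reduced at -0.94. A run of 7 on chromosome 3 (48517684 to 48635493) held COL7A1, the anchoring fibril collagen (-0.89), and the small RNA genes MIR711 and MIR6824. Another 6 small RNA genes on the same chromosome (186784796 to 186787749), the most compact of 5 runs of that size, lie within 2.95 kb. In poly(A)-enriched libraries, reads of small RNA genes cannot be told apart from those of a longer transcript that spans them. These genes are therefore not counted as independent falls. A run of 5 higher genes at the IGF2 locus (chromosome 11, 2129112 to 2161209) held overlapping transcripts, ENSG00000240801 among them, and ranged from 1.51 to 2.19.

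The remaining run of 7, on chromosome 1 (152168125 to 152911886), lies in the epidermal differentiation complex, whose late cornified envelope (LCE) and involucrin genes encode proteins of the outer skin layer. FLG-AS1, LCE3D, LCE2C, LCE2B, LCE2A, LCE1F and IVL had log2 changes of -3.33 to -1.11. With VM libraries only and with the V libraries, respectively, LCE2C was at -4.30 and -1.46, LCE3D at -4.17 and -1.52, LCE2B at -4.12 and -2.42, LCE1F at -3.28 and -1.19, LCE2A at -2.68 and -1.41, and FLG-AS1 at -1.88 and -0.62. LCE2A was at 13.3, 17.03 and 20.4 CPM in siNT and at 1.85, 3.87 and 9.31 CPM in siSMARCA4, while its DMSO mean was 0.961 CPM. LCE1F was at 17.1 to 24.5 CPM in siNT and 1.59 to 11.8 CPM in siSMARCA4, the V libraries of number 4 being highest. IVL differed within siNT, with 13.5 to 16.2 CPM in number 2 and 1.82 to 3.84 CPM in number 4, and was at 0.280 to 1.30 CPM in siSMARCA4. The LCE genes are close paralogs that can share reads, and LCE3D, LCE2B and FLG-AS1 averaged 1.10 CPM or less in siNT. The promoters of the genes with the highest levels that hold a motif are shown, IVL (chr1:152908296-152908545, plus strand; 1 AP-1 site) and LCE2A (chr1:152698095-152698344, plus strand; 2 TEAD sites), with motifs in capitals.
IVL: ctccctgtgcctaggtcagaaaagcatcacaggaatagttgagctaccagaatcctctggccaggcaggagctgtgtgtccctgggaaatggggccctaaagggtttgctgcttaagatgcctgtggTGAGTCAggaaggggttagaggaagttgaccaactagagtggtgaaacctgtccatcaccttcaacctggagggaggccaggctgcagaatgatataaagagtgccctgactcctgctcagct
LCE2A: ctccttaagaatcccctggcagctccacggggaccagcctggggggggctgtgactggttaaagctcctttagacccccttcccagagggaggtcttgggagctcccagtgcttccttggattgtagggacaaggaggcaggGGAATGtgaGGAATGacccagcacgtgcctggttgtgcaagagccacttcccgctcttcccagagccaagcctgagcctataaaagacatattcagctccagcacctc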

How the data were processed

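Poly(A)-enriched, strand-specific, paired-end RNA-seq of 17 libraries was used. Per the labels and the study's methods, the authors trimmed reads with Cutadapt 4.7, aligned them to GRCh38 with HISAT2 2.2.1 and counted genes and repeat loci with TElocal, which shares multi-mapping pairs by maximum likelihood. The deposited values are expected counts, written as whole numbers. The 62754 gene rows were used here, and the 4748242 repeat rows only for their share of counts. Symbols and positions came from GENCODE 44, which held 62700 of the identifiers, and promoters from RefSeq.

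Genes were kept by filterByExpr (minimum count 10, minimum total 15), leaving 19473. edgeR 4.0.16 (R 4.3.3) fitted a quasi-likelihood model over all 17 libraries with TMM factors and 1 term per group, or per group and siRNA number, with Benjamini-Hochberg adjustment over all genes tested. Called means an adjusted p under 0.05. CPM are TMM-scaled. The exceptions are marker sums and the ranges given where single genes serve as cell type markers, which use raw totals. Errors are SD unless SE is written. Named genes were SMARCA4, SMARCA2, MMP12, VGF, the 12 largest rises and falls under the criteria given, up to 3 called members per list with at least 5 CPM, 4 of the longest runs (the fourth being the most compact of 5 of equal size) and the 6 genes with the smallest p for the difference between numbers. KRT5, KRT14 and the other marker genes, LAMA3 and the run at the IGF2 locus were named after their values were seen. No 2 libraries of a group agreed within counting noise, by chi-square per degree of freedom. The closest pair, siNT 2-2VM and 2-3VM in 4OHT, was at 5.18, and the next closest siNT pair in 4OHT at 15.1. That closest pair makes up 2 of the 3 siNT libraries of number 2 in 4OHT. Some genes that the naming rule selects are not reported here. The comparison and the gene lists were chosen with earlier results of these data known, although the libraries follow the labels. Alternatives included DESeq2 1.42.0, other filters, VM libraries only and leaving out each library. The scripts' tests were run on simulated counts with the same spread for every gene. That simulation lacks the differences between libraries and tags seen here, so it does not bear on them.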

Additional observations from a re-analysis of the deposited data

Results flagged for a closer look

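A library standing apart from the other 5 of its group by Dixon's criterion was found in 23 of 296 groups examined, and chance gives about 1 in 20. siSMARCA4 4-2VM accounted for 6 of these, siSMARCA4 4-2V and siNT 4-2VM for 5 each. In siSMARCA4 4-2VM, COL1A2 was at 389.7 CPM (others 747 to 895), CDH11 at 15.03, PTGS1 at 7.31, MMP3 at 2881, C15orf48 at 43.7 (others 20.9 to 26.3) and MIR147B at 13.6 CPM. In siSMARCA4 4-2V, the total was 68.98 M counts (M, 1e6) (others 49.9 to 54.4), with HSPG2 at 88.3, FLNC at 696, CEBPG at 39.98 and SRCAP at 48.7 CPM. siSMARCA4 4-3V had MEST at 5.25 CPM (others 2.98 to 3.72) and TNFSF4 at 3.39 CPM.

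Among siNT libraries in 4OHT, 4-2VM had BGN at 207, PDGFRB at 148, WNT9A at 24.8, PTGS2 at 292 and PLAT at 3284 CPM. COL11A1 was lowest at 8.56 CPM and DKK2 at 6.35 CPM in 4-1VM, SMTN lowest at 360.4 CPM in 4-3VM, and FBN2 highest at 109 CPM in 2-1VM. The 2-3VM library had the fewest genes with counts, 26312.

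Changes that differed between siRNA numbers by the interaction test (edgeR adjusted p under 0.05; 140 genes in all) included 19 of the genes named above, given as number 2 minus number 4 on the log2 scale. The fall was larger, or was seen chiefly, with number 2 in VGF (-1.40), MEST (-1.52), ANK3 (-1.67), CPA4 (-1.83), DUSP4 (-1.48), JAG1 (-1.48), NTF3 (-1.54), DGAT2 (-1.78), TNFSF4 (-1.43), FAS (-0.80) and BTG2 (-0.997). The rise was larger with number 2 in WNT9A (1.41) and IGF2 (1.76). It was seen chiefly with number 2 in P4HA3 (2.16), which was at 2.29 with number 2 and 0.13 with number 4. The fitted changes had opposite signs in AHSA2P (1.05), C6orf120 (-0.84), DDR1 (0.92), FLRT3 (-1.25) and PSAT1 (-1.73). With V or VM as a covariate 207 genes were called, 137 of the 140 among them, and with a replicate block 115, 62 of the 140 among them.

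In the repeat rows, which the comparisons do not use, the mean share of counts was 1.73% in siSMARCA4, above all 6 siNT libraries in 4OHT (1.39% to 1.52%). The siSMARCA4 4-2VM library, at 1.52%, lay within the siNT range.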

How the results depend on the processing

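The SMARCA4 knockdown kept its direction and call in 23 alternatives, from -1.87 to -1.35 on the log2 scale (-1.73 to -1.53 when each library was left out in turn). The 4730 calls of the main comparison ranged from 3678 to 5295 when 1 library was left out, and were 1633 with the share of repeat counts as a covariate and 1636 with only the V libraries of siSMARCA4, an alternative added after the data were seen. The share of repeat counts itself differs between the groups. Number 2 gave 1856 to 3774 calls without 1 library, 1983 with the repeat covariate and 5258 from its own 6 libraries. Its count was 2148 without siNT 2-3VM, 2102 without siSMARCA4 2-1VM and 1856 without siSMARCA4 2-3VM. Number 4 gave 1147 to 3242 calls without 1 library, 1514 with the repeat covariate and 901 from its own 6 libraries. Its count was 1156 without siNT 4-1VM, 1147 without siNT 4-2VM and 1752 without siSMARCA4 4-3V. The 140 calls for the difference became 90 with DESeq2 size factors, 606 with DESeq2, 287 without a filter and 211 with 4OHT libraries only. Leaving out 1 library gave 7 to 572. Their lowest values, 7 to 39, came without siNT 2-1VM, 2-2VM, 2-3VM, 4-1VM or 4-2VM and without siSMARCA4 2-1VM, 2-3VM or 4-3V. The cause of these shifts was not tested.

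Of 3291 values of single genes under the alternatives, 3141 kept direction and call, 150 lost the call and 0 reversed; 37 were lost with the repeat covariate and 39 with the V libraries only. The deviations of libraries with the same label correlated at 0.0843, -0.131 and 0.331. So few values cannot decide whether the samples are paired, and the main comparison used no pairing. The replicate block gave 4437, 3572, 2971 and 115 calls for the main comparison, number 2, number 4 and their difference, and -1.77 for SMARCA4.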
